A study of Mus musculus with 42 samples.

Results

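The soleus of adult mice that lack calpain 3 was compared with that of wild-type adults, on 11 of the 42 arrays of the series. Its 11 members are the soleus arrays of mice titled as adult, 6 from C3KO mice and 5 from wild-type (wt) mice, 1 array per mouse, and every difference is given as C3KO minus wt. C3KO is read here, from general knowledge, as the knockout of Capn3. All mice were males aged 11 to 12 months, and both genotypes carry the same label, 129 SvEvBrd x C57BL/6 heterozygotes. Beside genotype, the sample names and a sample code also differ between the groups, as given below. The series also holds quadriceps of these adults and both muscles of mice aged 2 to 3 months. The wt adult M2-1 contributed no array to any comparison, because for both of its arrays the title names 1 muscle and the description the other. Whole muscle was lysed, so in these data fewer cells of a type and less RNA per cell cannot be told apart.

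Calpain 3 is a cysteine protease made almost only in skeletal muscle, where it is held on the giant spring protein titin along the sarcomere. Loss of its gene causes a recessive limb-girdle muscular dystrophy in people, and mice without it have a mild myopathy. Soleus is a postural muscle rich in slow, oxidative fibres. Work on these mice has asked whether calcium signalling through CaMKII and the slow-fibre programme depend on the protease, and the gene lists below were chosen with that question, and with earlier results of these data, in view.

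The 11 arrays carried muscle RNA by their markers. Acta1, Ckm, Mb and the slow genes Myh7 and Tnni1 lay at or above the 99.6th percentile of every array, and the liver gene Alb lay under the array median on all 11. Another liver gene, Apoa1, lay above it on all 11, between the 55.7th and 63.3rd percentile (log2 intensity 4.77 to 5.34), against 13.92 on the array with liver RNA described below. Correlations between pairs of arrays ran from 0.971 to 0.993 and no pair was identical. The difference between the 3 prime and 5 prime actin probe sets, a sign of RNA integrity, was 0.22 ± 0.16 (SD, n = 5) in wt and 0.27 ± 0.11 (SD, n = 6) in C3KO (exact permutation test, two-sided, p = 0.604 over 462 arrangements). The sample code in the descriptions, whose meaning the labels do not give, is unevenly spread: code 1-1 holds 1 wt (M2-2) and 3 C3KO arrays, code 1-3 holds 4 wt and 3 C3KO arrays. No name prefix of a mouse occurs in both genotypes (wt M2, W2 and X2, C3KO Q2 and U2), so a property shared by the mice of a prefix cannot be told apart from genotype. The wt array of M2-2 weighed on the results more than any other left out, as described below.

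Loss of calpain 3 went with a small set of changed transcripts. Of 11934 genes tested with limma, 50 passed an adjusted p of 0.05 (0.419%), 27 higher (0.226%) and 23 lower (0.193%) in C3KO. Of these 15 differed by over 2-fold, 11 higher and 4 lower. The 5 wt and 6 C3KO values did not overlap for 36 of the 50, against 1.32% of all genes tested. Without the wt array of M2-2 the count was 229 of 11915 (1.92%), and all 50 were among them. Without the wt array of W2-3 it was 17 (all among the 50), and leaving out any of the others gave 19 to 45. A fit that takes the code as a block called 20 genes, 19 of them among the 50, and arrays of code 1-3 alone gave 21 calls, 11 of them among the 50. Code 1-1 holds a single wt array and gives no test of its own.

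**Figure D1:**
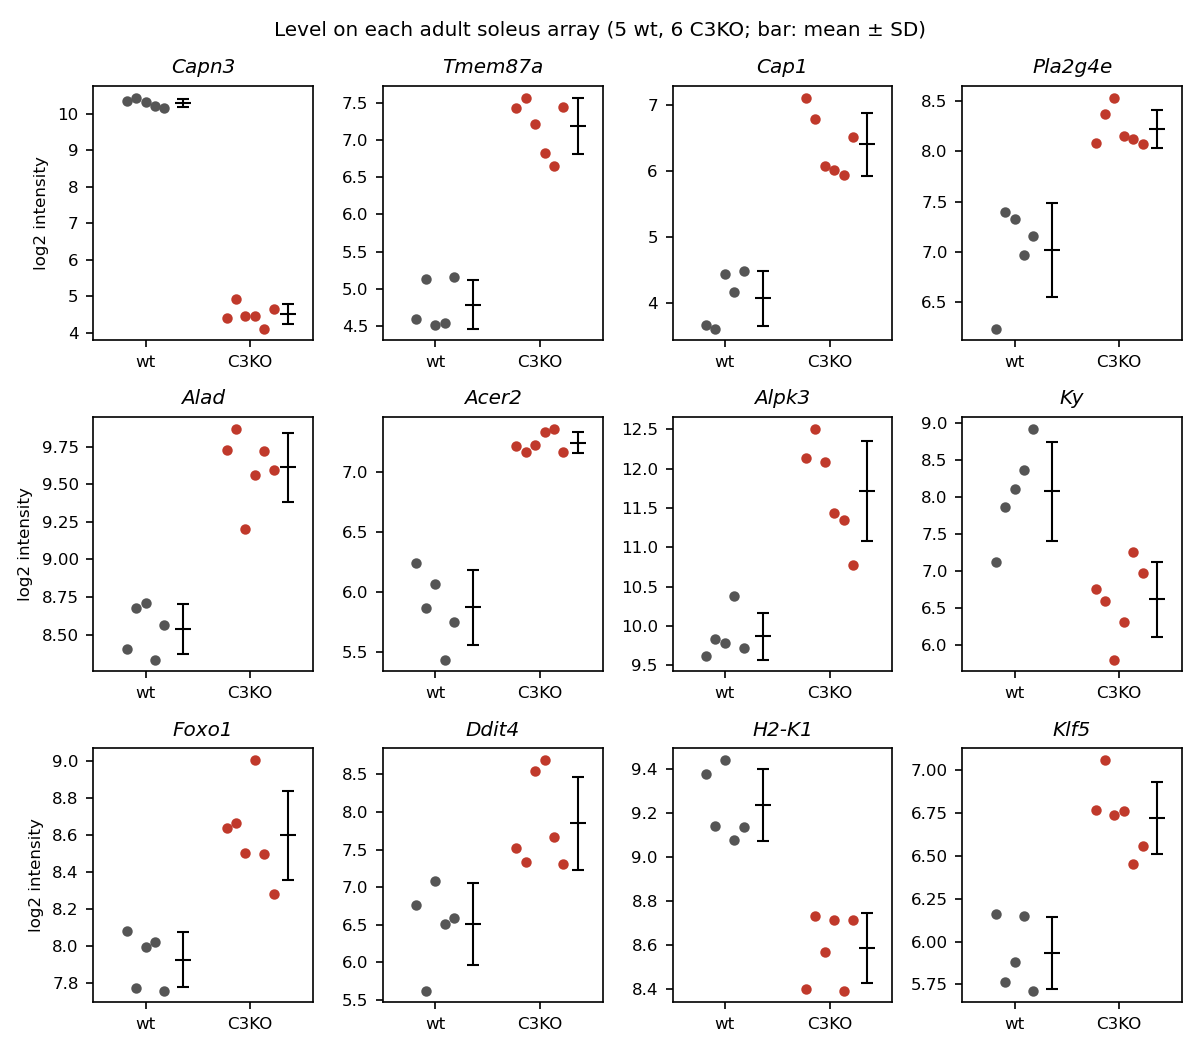
Deposited log2 intensity (vertical axes, a separate scale in each panel) of 12 genes on each of the 5 wt and 6 C3KO adult soleus arrays, with the mean ± SD of each group beside the points. Groups do not overlap except for Ky, where the lowest wt array (7.12, M2-2) lies under the highest C3KO array (7.26).

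Capn3 itself was at log2 intensities of 10.35, 10.45, 10.34, 10.22 and 10.17 on the wt arrays. On the C3KO arrays its lowest, median and highest values were 4.10, 4.47 and 4.93. The groups lie far apart, and the C3KO values sit at the level of the array medians, which ran from 4.36 to 4.47, where signal and background are not separated. The log2 change was −5.80 ± 0.12 (SE, limma adjusted p = 2.26e-17) and passed in every alternative tried. No other member of the calpain system passed: the 9 others tested had changes whose smallest p belonged to Capn5 (−0.21 ± 0.09, adjusted p = 0.394) and Capn2, a subunit of the ubiquitous m-calpain (0.19 ± 0.10, adjusted p = 0.524). The list's median, Capn3 included, was −0.04, against 0.01 over all genes tested.

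Genes that lie near Capn3 on chromosome 2 were prominent among the changes. Tmem87a, which encodes a membrane protein of the Golgi and stands 2 places from Capn3 in gene order, was at 4.59, 5.13, 4.51, 4.54 and 5.15 in wt and from 6.65 over a median of 7.33 to 7.57 in C3KO. The groups are separated by more than a log2 unit, and the rise was 2.41 ± 0.21 (adjusted p = 3.70e-06). Each wt value exceeded the median of its array, but the lowest lay close to the array medians (4.36 to 4.47). So the wt level is near background and the size of the rise is uncertain. The gene was read by a single probe set. Pla2g4e, which encodes a calcium-dependent enzyme that makes N-acyl phospholipids, was at 6.24, 7.40, 7.33, 6.97 and 7.16 in wt and at 8.07, 8.14 and 8.53 (lowest, median, highest) in C3KO. M2-2 was the lowest wt array, the groups did not overlap, and the rise was 1.20 ± 0.17 (adjusted p = 0.00103). Zfp106, next to Capn3, encodes an RNA-binding zinc finger protein needed for the upkeep of muscle and its nerve supply. It was at 11.81, 11.66, 11.66, 11.53 and 11.63 in wt and at 12.08, 12.19 and 12.35 in C3KO, a rise of 0.54 ± 0.08 (adjusted p = 0.00324) with no overlap.

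Of the 12 named genes on each side of Capn3, 17 were measured and 3 passed, the ones just described. Haus2, a subunit of the augmin complex of the spindle, came closest of the rest (−0.66 ± 0.16, adjusted p = 0.0763), also with no overlap between the groups, but the mean of its probe sets had −0.043 (adjusted p = 0.952). The other 13 had changes from −0.35 to 0.28, none past the test. Among them is Ganc, which adjoins Capn3 on the side of Tmem87a. Its means were 4.57 in wt and 4.49 in C3KO, above the array median on 3 of 5 and 3 of 6 arrays. Its level is not told from background, so its missing call says little. Vps39, between Pla2g4e and Tmem87a (0.13 ± 0.09, adjusted p = 0.643), and Snap23, which follows Zfp106 (0.03 ± 0.12, adjusted p = 0.960), also did not pass. So genes that did not pass lie between and beside the ones that rose. Within 100 places on each side 8 of 103 tested genes passed (7.77%, against 0.419% of all), 4 higher and 4 lower. Among the lower were Ccdc32 (−0.70 ± 0.10, adjusted p = 0.00106) and Adal, which encodes an adenosine deaminase-like enzyme (−0.61 ± 0.10, adjusted p = 0.00324). Ccdc32 was at 6.67, 6.55, 6.49, 6.50 and 6.30 in wt and at 5.56, 5.83 and 5.97 in C3KO, and Adal was at 7.58, 7.49, 7.59, 7.78 and 7.25 in wt and at 6.79, 6.96 and 7.01 in C3KO. In both the groups were apart on all 11 arrays. The mean of the probe sets of Adal had −0.45 (adjusted p = 0.0516).

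Over the whole genome the calls were unevenly spread. Chromosomes 2 and 4 held 14 called genes each, together 28 of 1684 tested (1.66%), against 22 of 10225 on the other chromosomes (0.215%). On each of the pair 7 genes were higher and 7 lower. Chromosome 2 had 1.48% of its tested genes called and chromosome 4 had 1.9%, and the highest share of the rest was 0.501% on chromosome 14. Without the wt array of M2-2 the shares were 3.6% on chromosome 2, 4.07% on chromosome 4 and 1.62% elsewhere. Of the 50 genes, 16 passed in all 11 fits that left out 1 adult array, and 15 of these were on chromosomes 2 and 4 (9 and 6). The remaining 1 was Alpk3 on chromosome 7. The other 34 lost the call without at least 1 array. Only 7 genes passed under every other alternative as well: Capn3, Tmem87a, Cap1, Alad, Acer2, Pla2g4e and Fibin. Bdnf passed in all 10 of the other alternatives that tested it, and was not tested in arrays of code 1-3 alone. On chromosome 7 the called genes Selenos, Hddc3 and Alpk3 stood at places 967, 1030 and 1042 of 1905 in gene order. Whether they lie closer than chance gives was not tested.

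**Figure D2:**
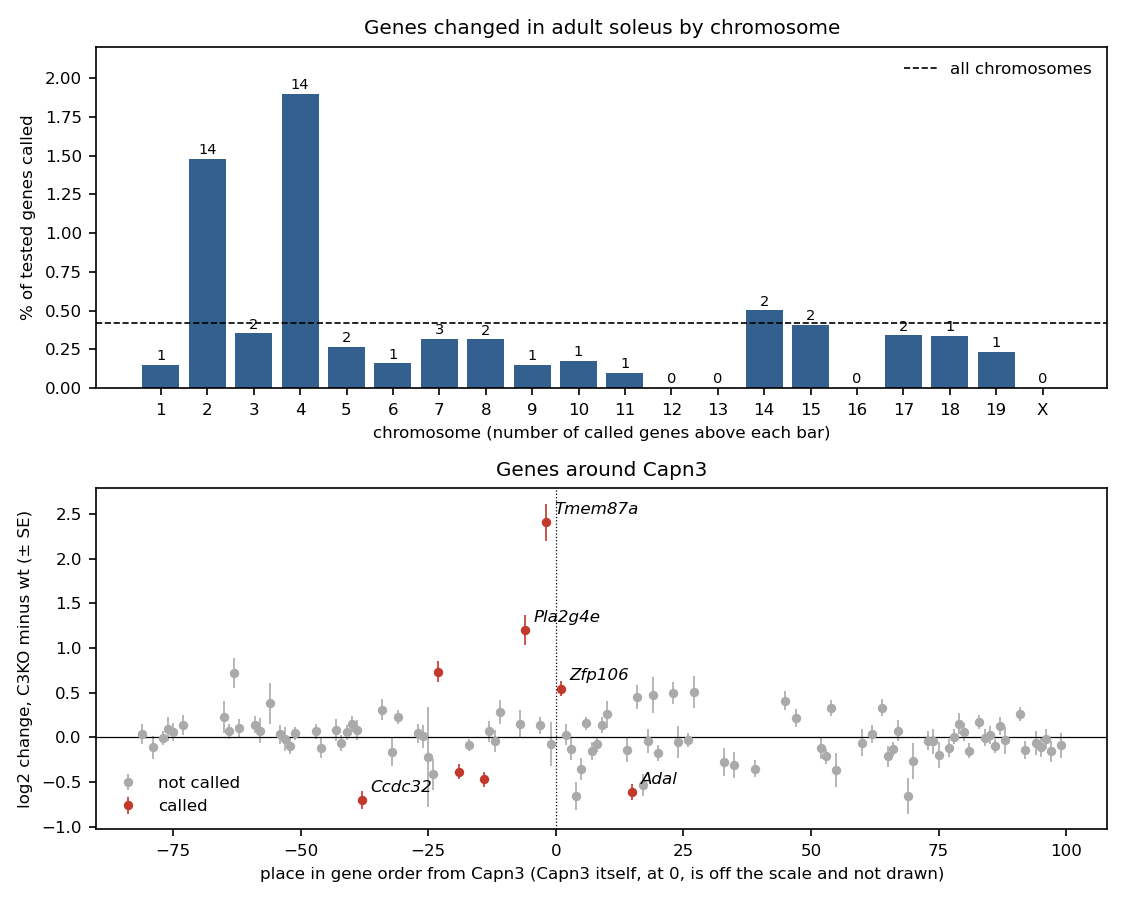
Upper panel, percent of tested genes called on each chromosome in adult soleus, with the number of called genes above each bar and the share over all chromosomes as a dashed line. Lower panel, log2 change ± SE of the tested genes within 100 places of Capn3 in gene order, called genes in red. Chromosomes 2 and 4 stand at 1.48% and 1.9%, and Tmem87a is the highest of the 8 called genes around Capn3.

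Further along chromosome 2, Fibin, Bdnf and Mpped2 lie close together in gene order. Fibin, which encodes a small secreted protein, was at 5.42, 5.51, 5.14, 5.70 and 5.37 in wt and at 6.19, 6.60 and 6.95 in C3KO. Its rise was 1.20 ± 0.18 (adjusted p = 0.00237) with no overlap. Bdnf, the brain-derived neurotrophic factor that muscle also makes, was at 4.67, 4.10, 3.59, 3.75 and 3.92 in wt and at 4.79, 5.05 and 5.31 in C3KO. All C3KO arrays lay above all wt arrays, but wt values exceeded the array median on only 1 of 5 arrays, so the rise of 1.04 ± 0.18 (adjusted p = 0.00935) starts from a level not told from background. It was the only one of 8 tested neurotrophin and receptor genes to pass. Mpped2, a metallophosphoesterase gene, fell by 0.83 ± 0.12 (adjusted p = 0.00124). A second probe set of the gene had a difference of the other sign (0.10), and without the wt array of X2-3 a change of −0.04 was obtained because that probe set then stands for the gene. The mean of both had −0.36 (adjusted p = 0.349).

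On chromosome 4 the leading gene was Cap1, whose protein recycles actin monomers. Its values were 3.67, 3.61, 4.43, 4.17 and 4.49 in wt and 5.93, 6.29 and 7.11 in C3KO. The groups are over a log2 unit apart, and the rise was 2.33 ± 0.22 (adjusted p = 8.63e-06). Only 2 of 5 wt arrays exceeded the array median, so most of the wt values are not told from background. Alad encodes an early enzyme of haem synthesis, aminolaevulinate dehydratase. It was at 8.41, 8.68, 8.71, 8.33 and 8.56 in wt and at 9.20, 9.66 and 9.87 in C3KO, a rise of 1.07 ± 0.11 (adjusted p = 1.34e-05). No other of the 13 tested haem genes passed, and their median was −0.03. Acer2, which encodes a ceramidase of the Golgi that releases sphingosine, was at 6.24, 5.86, 6.07, 5.43 and 5.75 in wt and at 7.17, 7.22 and 7.36 in C3KO. The C3KO arrays were closely alike (SD 0.09, n = 6), the rise was 1.38 ± 0.16 (adjusted p = 1.59e-04), and Acer2 alone passed among 21 tested ceramide and sphingolipid genes (median 0.03).

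Lower on chromosome 4 in C3KO were Pdp1, Rsrp1, Pnrc2 and Zfp46. Pdp1 encodes the phosphatase that switches the pyruvate dehydrogenase complex on, and fell by 0.93 ± 0.20 (adjusted p = 0.0495). Its wt values were 7.79 on M2-2 and 8.71, 8.93, 9.18 and 9.05 on the others, against 7.48, 7.88 and 8.05 in C3KO, so the groups overlap through M2-2 alone. Of the 11 fits that each omit 1 array, the call held only in that without M2-2. Rsrp1 fell by 0.69 ± 0.13, Pnrc2, a factor of messenger RNA decay, by 0.62 ± 0.13, and the zinc finger gene Zfp46 by 0.61 ± 0.12 (adjusted p = 0.0274, 0.0381 and 0.0309). Their calls held in 5, 2 and 4 of the 11 fits, and 1 further probe set of Pnrc2 had a difference of the other sign. The block for the code ended all 4 calls (adjusted p from 0.0796 to 0.0973), at changes of −0.75 for Pdp1, −0.66 for Rsrp1, −0.55 for Pnrc2 and −0.56 for Zfp46. The mean of probe sets had −0.94 for Pdp1 (adjusted p = 0.0583) and −0.35 for Pnrc2 (adjusted p = 0.140).

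Alpk3 had the largest fitted rise of any gene off chromosomes 2 and 4. It encodes alpha-kinase 3, a protein of striated muscle sarcomeres whose loss causes cardiomyopathy. Its start site is shown because it is the only gene off those chromosomes whose call held whichever array was left out. The 250 bases before the RefSeq start (GRCm38.p6, plus strand, chr7:81057350-81057599) read as follows, with the TATAAA motif in capitals.
Alpk3: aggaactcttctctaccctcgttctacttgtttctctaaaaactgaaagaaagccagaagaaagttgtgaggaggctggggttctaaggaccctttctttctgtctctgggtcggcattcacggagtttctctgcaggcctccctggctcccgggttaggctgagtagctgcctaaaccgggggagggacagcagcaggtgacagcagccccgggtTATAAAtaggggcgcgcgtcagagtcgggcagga

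On the arrays Alpk3 was at 9.62, 9.84, 9.78, 10.39 and 9.72 in wt and at 10.78, 11.76 and 12.51 in C3KO. Every C3KO array lay above the highest wt array (X2-2), and the C3KO arrays spread more widely among themselves than the wt arrays. The rise was 1.84 ± 0.25 (adjusted p = 0.00103). It was larger among arrays of code 1-1 (wt 9.62, C3KO mean 12.24) than of code 1-3 (wt mean 9.93, C3KO mean 11.19). A block for the code gave 1.67 (adjusted p = 0.00220), and within code 1-3 the change was 1.25 and did not pass (adjusted p = 0.0549).

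Of 23 genes tested on the list named Z-disc, 1 rose (Alpk3) and 1 fell (Ky), with a list median of 0.08. Alpk3 is counted here as a list member, and the place of its protein within the sarcomere was not examined. Ky encodes the kyphoscoliosis peptidase, a Z-disc protein whose loss in mice gives a myopathy of postural muscle. It was at 7.12 on wt M2-2 and at 7.87, 8.11, 8.37 and 8.93 on the other wt arrays. In C3KO it was at 5.80, 6.67 and 7.26, so that only M2-2 fell within the C3KO range. The fall was 1.46 ± 0.29 on the log2 scale (adjusted p = 0.0309). The call held in 3 of the 11 fits that omit 1 array each (M2-2, U2-1 or U2-2), with adjusted p up to 0.101 in the others. A block for the code ended it (−1.24, adjusted p = 0.0830). Xirp1, whose protein marks sarcomere damage and remodelling, had the next smallest p of the list (1.16 ± 0.30, adjusted p = 0.117). It was at 11.47 on wt M2-2 and between 9.08 and 10.49 on the other 4 wt arrays, against 10.78 to 11.60 in C3KO. Actn2, the main Z-disc crosslinker, had 0.14 ± 0.09 (adjusted p = 0.590).

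Of 27 genes of actin turnover, 2 rose and none fell (median −0.02). Beside Cap1, Lmod2, which encodes the leiomodin that lengthens thin filaments, rose by 0.48 ± 0.10 (adjusted p = 0.0309). Its wt values were 12.26 on M2-2 and 11.74 to 11.86 on the others, and its C3KO values 12.22, 12.36 and 12.57. The groups overlap through M2-2, and the call held in 3 of 11 fits (without M2-2, Q2-1 or U2-1). It was lost under a block for the code (0.45, adjusted p = 0.0878). Dstn, which encodes the actin-severing protein destrin and lies on chromosome 2, had −0.47 ± 0.11 (adjusted p = 0.0622), and Actg1 −0.29 ± 0.10 (adjusted p = 0.253). Without M2-2 Dstn passed (−0.47 ± 0.12, adjusted p = 0.0432).

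The filaments themselves did not pass at any member. The 12 slow thick and thin filament genes tested had a median change of 0.05 and none under an unadjusted p of 0.05 in limma, with Myh7, the slow myosin heavy chain, at 0.10 ± 0.08 (adjusted p = 0.693) and Tnni1 and Tnnt1, the slow troponins, at 0.12 ± 0.10 and 0.13 ± 0.08. The mean log2 intensity over the slow list was 12.22 ± 0.10 (SD, n = 5) in wt and 12.27 ± 0.03 (SD, n = 6) in C3KO. Of 15 fast genes, 14 had a change under 0, where 5647 of all 11934 genes tested did. None passed, nor reached an unadjusted p of 0.05 in limma (median −0.08). Pvalb, the calcium buffer of fast fibres, had −1.16 ± 0.64 (adjusted p = 0.547), Mybpc2 −1.09 ± 0.67 (adjusted p = 0.593) and Myh4, the myosin of the fastest fibres, −1.11 ± 1.15 (adjusted p = 0.777). These genes vary widely between mice of a genotype: Myh4 ran from 7.68 to 12.99 in wt and from 5.49 to 12.32 in C3KO. Pvalb, Mybpc2 and Myh4 were all highest on X2-2 and X2-3 and lowest on Q2-3. They vary together, so the shared sign of the fast genes is not a count of independent changes. Of 19 genes of titin and its partners 0 passed in limma (median 0.10), with 3 higher and none lower at an unadjusted p under 0.05. Ttn had 0.03 ± 0.06 (adjusted p = 0.911), Ankrd1, a stretch-responsive partner of titin, 0.62 ± 0.21 (adjusted p = 0.260) and Palld 0.30 ± 0.13 (adjusted p = 0.380).

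Neither did the calcium signalling lists pass at any member. Of 25 genes of CaMKII, calcineurin and MEF2 signalling 0 passed in limma, with a median of 0.00. At an unadjusted p under 0.05 there were 2 higher and 2 lower. Rcan1, which encodes a calcineurin inhibitor and is itself a calcineurin target, had 0.86 ± 0.22 (adjusted p = 0.109). It was at 11.43 on wt M2-2 and at 10.36, 9.99, 9.80 and 9.76 on the other wt arrays, against 10.85 to 11.56 in C3KO. Without M2-2 it passed (1.15 ± 0.14, adjusted p = 4.31e-04). Hdac4, a repressor of MEF2 that CaMKII phosphorylates, had −0.33 ± 0.09 (adjusted p = 0.155), and Camk2b, the CaMKII subunit of muscle, −0.26 ± 0.13 (adjusted p = 0.476). Of 23 genes of excitation-contraction coupling 0 passed (median 0.00, 1 lower at an unadjusted p under 0.05), and the smallest p belonged to Cacna2d1, a subunit of the voltage sensor (−0.26 ± 0.11, adjusted p = 0.397). Of 23 genes of the dystrophin complex and limb-girdle dystrophies 0 passed (median 0.02, 2 higher at an unadjusted p under 0.05), Lmna coming closest at 0.52 ± 0.13 (adjusted p = 0.0972). Without M2-2 Lmna passed (0.61 ± 0.13, adjusted p = 0.0183).

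**Figure D3:**
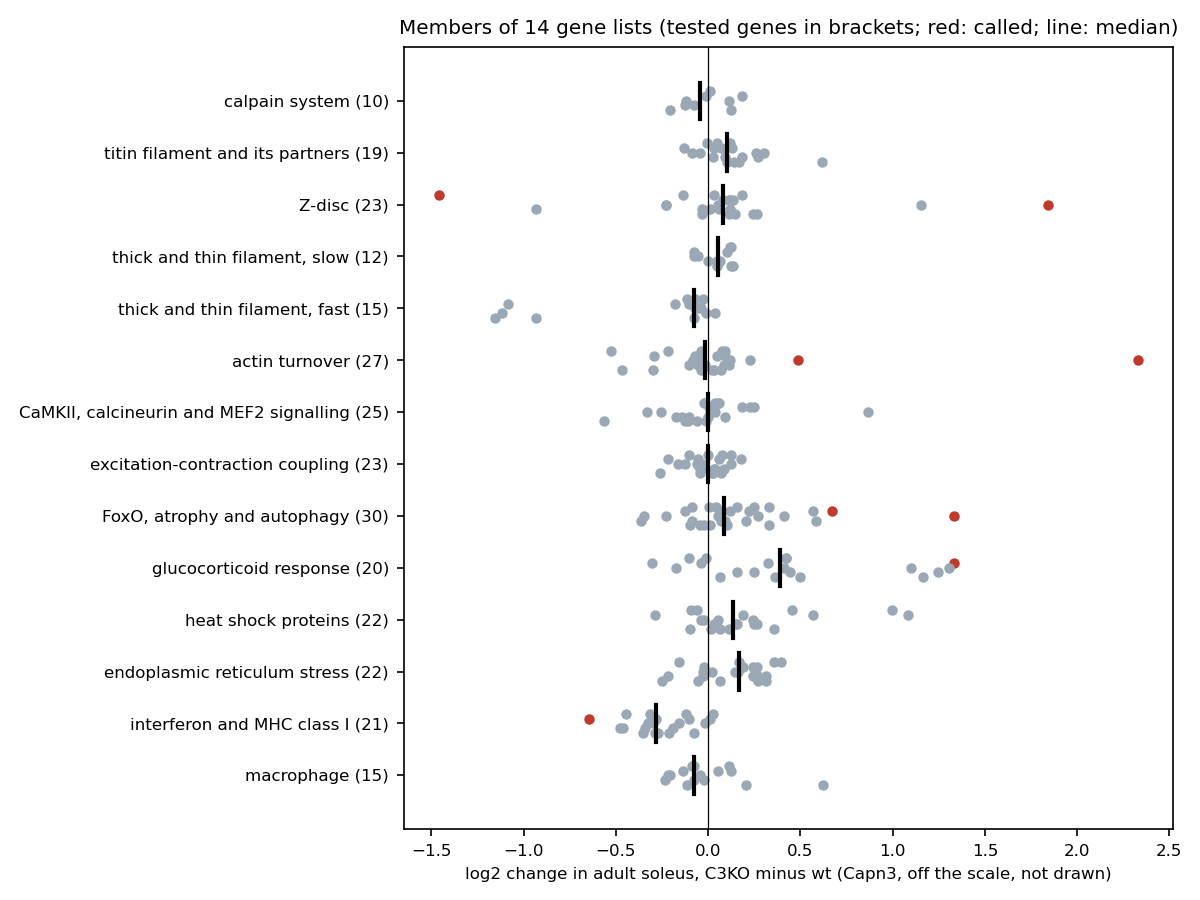
Log2 change (horizontal axis, C3KO minus wt in adult soleus) of each tested member of 14 gene lists, with the list median as a black line and called genes in red. The slow filament genes cluster around their median of 0.05, the interferon genes lie mostly under 0 (median −0.28) and the glucocorticoid genes mostly above it (median 0.39).

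Genes of the FoxO, atrophy and autophagy list included 2 that rose and none that fell among 30 tested (median 0.08). At an unadjusted p under 0.05, 8 were higher and none lower, where 6.54% of all genes tested were higher and 4.21% lower. Foxo1 encodes the transcription factor that insulin signalling holds out of the nucleus and that drives atrophy genes in fasting. Ddit4 (REDD1) encodes an inhibitor of mTOR complexes that is induced by glucocorticoids and hypoxia, and is also on the glucocorticoid list. The start sites of both are shown because they are the 2 members that rose. The windows are the 250 bases before the RefSeq start in GRCm38.p6, Foxo1 on the plus strand (chr3:52268087-52268336) and Ddit4 on the minus strand (chr10:59951771-59952020).
Foxo1: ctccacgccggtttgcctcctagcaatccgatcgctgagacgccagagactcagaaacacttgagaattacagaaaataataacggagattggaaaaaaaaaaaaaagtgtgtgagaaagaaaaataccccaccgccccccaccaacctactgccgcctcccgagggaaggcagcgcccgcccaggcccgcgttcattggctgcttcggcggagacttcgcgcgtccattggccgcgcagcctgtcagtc
Ddit4: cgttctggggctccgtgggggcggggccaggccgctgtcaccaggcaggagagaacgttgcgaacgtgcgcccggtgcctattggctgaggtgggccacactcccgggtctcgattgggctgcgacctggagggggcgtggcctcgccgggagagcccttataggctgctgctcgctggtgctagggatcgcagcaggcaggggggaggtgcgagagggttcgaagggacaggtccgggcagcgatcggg

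The 3 windows printed here were searched on both strands for the FoxO core GTAAACA, the E-box CAGCTG of myogenic factors, the E-box CACGTG and TATAAA. No match overlapped another. Of these TATAAA alone was found, once, in Alpk3. Over 32841 windows of the same length the shares that hold each motif were 3.17%, 13%, 6.02% and 12.4%, in that order. The absence of letters from a window this short says nothing about whether a factor acts on the gene.

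Foxo1 was at 8.08, 7.77, 7.99, 8.02 and 7.76 in wt and at 8.28, 8.57 and 9.01 in C3KO, with no overlap. The rise was 0.67 ± 0.14 (adjusted p = 0.0420). Ddit4 was at 6.76, 5.62, 7.09, 6.50 and 6.58 in wt and at 7.31, 7.59 and 8.70 in C3KO, also with no overlap, a rise of 1.33 ± 0.29 (adjusted p = 0.0495). Both calls held in 2 of the 11 fits that omit 1 array each (M2-2 or U2-1). Both were lost under a block for the code, at changes of 0.65 and 1.32 (adjusted p = 0.104 and 0.108). In the fit on means of probe sets the adjusted p was 0.0736 for Foxo1 and 0.0507 for Ddit4, at changes of 0.64 and 1.33. Gabarapl1, an autophagosome gene under FoxO control, had 0.58 ± 0.18 (adjusted p = 0.197), and its wt value on M2-2 (10.81) was above all C3KO arrays. The ubiquitin ligase genes of atrophy did not pass: Fbxo32 had −0.23 ± 0.11 (adjusted p = 0.475) and Trim63 −0.09 ± 0.12 (adjusted p = 0.851).

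Of 20 glucocorticoid response genes, 1 rose (Ddit4) and none fell, with a median of 0.39 against 0.01 over all genes. At an unadjusted p under 0.05, 8 of the 20 were higher, where 6.54% of all genes tested were, and none was lower. Angptl4, an inhibitor of lipoprotein lipase, was at 5.87 to 7.00 in wt and at 7.29 to 8.09 in C3KO (1.16 ± 0.34, adjusted p = 0.165). The metallothionein gene Mt1 had 1.25 ± 0.38 (adjusted p = 0.192), Cebpd 1.10 ± 0.37 (adjusted p = 0.253) and Pdk4, a kinase that switches pyruvate dehydrogenase off, 0.36 ± 0.10 (adjusted p = 0.129). Groups did not overlap for Angptl4 and Mt1. Cebpd split by prefix within C3KO: it was at 8.17 to 8.50 on the Q2 arrays and at 7.19 and 6.94 on the U2 arrays. The U2 values lie within the wt range of 6.33 to 7.20. Mt1 was also lowest on the U2 arrays (9.54 and 9.13), but Angptl4 was highest there (7.80 and 8.09). Without M2-2 the list had 2 members called, Ddit4 and Pdk4, both higher, where 1.25% of all genes tested were called higher.

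Most genes of the interferon response and of MHC class I had values under 0. Of 21 tested, 1 fell (H2-K1) and none rose, and the median was −0.28. A change under 0 was found for 19, where 5647 of all 11934 genes tested had one. At an unadjusted p under 0.05, 9 of the 21 were lower, where 4.21% of all genes tested were. H2-K1, a classical MHC class I heavy chain, was at 9.38, 9.14, 9.44, 9.08 and 9.14 in wt and at 8.39, 8.64 and 8.73 in C3KO. The groups were apart and the fall was 0.65 ± 0.13 on the log2 scale (adjusted p = 0.0385). The call held in 2 of 11 fits (without M2-2 or U2-1) and was lost under a block for the code (−0.66, adjusted p = 0.0830). Its other 3 kept probe sets had differences of −0.54, −0.31 and −0.10, and the mean of all 4 did not pass (−0.40, adjusted p = 0.104). The class I heavy chain genes are highly alike, so its probes may also take signal from related genes. B2m, the light chain of MHC class I, had −0.35 ± 0.10 (adjusted p = 0.141), the immunoproteasome gene Psmb8 −0.33 ± 0.10 (adjusted p = 0.166), Bst2 −0.34 ± 0.10 (adjusted p = 0.192) and Ifit3 −0.48 ± 0.18 (adjusted p = 0.296). B2m and Psmb8 did not overlap between the groups, and B2m lies 39 places from Capn3 in gene order.

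Markers of immune cells are given beside this. Of 15 macrophage genes tested 0 passed in limma (median −0.08, 1 higher at an unadjusted p under 0.05), and their mean level ran from 5.97 to 6.71 in wt and from 5.95 to 6.69 in C3KO. Of 6 lymphocyte genes tested 0 passed (median −0.04, 1 lower at an unadjusted p under 0.05), with levels from 5.32 to 5.90 in wt and from 5.33 to 5.68 in C3KO. The part of these cells in the interferon values was not tested. Cxcl9, an interferon-gamma chemokine not on the list, fell by 0.87 ± 0.18 (adjusted p = 0.0381). Only 1 of 6 C3KO arrays exceeded the array median for it, so its C3KO level is not told from background. The call held in 2 of the 11 fits and was lost under a block for the code (−0.75, adjusted p = 0.0878).

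The other genes that rose had varied roles, and all but Pkp4 of those described here lie off chromosomes 2 and 4. Klf5, which encodes a Krüppel-like transcription factor, was at 6.16, 5.76, 5.88, 6.15 and 5.71 in wt and at 6.45, 6.75 and 7.06 in C3KO, a rise of 0.79 ± 0.16 (adjusted p = 0.0303) with no overlap. Xdh, the purine-degrading xanthine dehydrogenase, was at 7.15, 6.62, 6.90, 6.79 and 7.27 in wt and at 7.51, 7.67 and 8.07 in C3KO, a rise of 0.79 ± 0.15 (adjusted p = 0.0273), also with no overlap. Selenos, a selenoprotein that helps extract misfolded proteins from the endoplasmic reticulum, rose by 0.98 ± 0.19 (adjusted p = 0.0303), with 1 C3KO array (9.76, U2-2) within the wt range. Mcf2l rose by 1.01 ± 0.21 (adjusted p = 0.0354), and the magnesium channel gene Trpm6 by 1.07 ± 0.22 (adjusted p = 0.0386), from wt values that exceeded the array median on 3 of 5 arrays. A second probe set of Trpm6 had a difference of 0.15, and the mean of both did not pass (0.61, adjusted p = 0.102). The mean for Selenos had 0.88 (adjusted p = 0.0596). Pkp4, a junction protein gene on chromosome 2 but far from Capn3 in gene order, rose by 0.80 ± 0.15 (adjusted p = 0.0231) with no overlap. Of the 11 fits that omit 1 array each, the calls held in 4 for Klf5 and Selenos, 6 for Xdh and Pkp4, 2 for Mcf2l and 3 for Trpm6. Under a block for the code none of these 6 calls held (adjusted p from 0.0739 to 0.0935), at changes of 0.71 for Klf5, 0.72 for Xdh, 0.88 for Selenos, 0.91 for Mcf2l, 0.92 for Trpm6 and 0.76 for Pkp4.

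Among the genes that fell, 2 encode secreted proteins of vessels and matrix. Angpt1, the ligand that steadies endothelium through the Tie2 receptor, was at 8.44 on wt M2-2 and at 9.26, 9.56, 9.52 and 9.23 on the other wt arrays, against 8.05, 8.33 and 8.54 in C3KO. It fell by 0.90 ± 0.18 (adjusted p = 0.0303), and M2-2 alone lay in the C3KO range. Egflam, which encodes pikachurin, a matrix ligand of dystroglycan, was at 6.22 on M2-2 and 7.16 to 7.37 on the other wt arrays, against 5.87, 6.25 and 6.59 in C3KO (−0.78 ± 0.17, adjusted p = 0.0495). Their calls held in 3 and 2 of the 11 fits, were lost under a block for the code (−0.83 and −0.72, adjusted p = 0.0830 and 0.132) and held within code 1-3. In the fit on means of probe sets Egflam had an adjusted p of 0.0507. Of 10 endothelial genes tested 0 passed in limma (median −0.04, 1 higher at an unadjusted p under 0.05), Flt1 having the smallest p (0.79 ± 0.18, adjusted p = 0.0665). Without M2-2 Flt1 passed (0.82 ± 0.20, adjusted p = 0.0412). Of 27 matrix genes 0 passed (median 0.01), with 5 higher and none lower at an unadjusted p under 0.05, where 6.54% of all genes were higher. Hddc3, an HD domain phosphohydrolase gene on chromosome 7, fell by 1.53 ± 0.32 (adjusted p = 0.0420). It was at 7.30 to 7.89 in wt and at 5.08, 6.22 and 6.82 in C3KO with no overlap, and the call held in 4 of the 11 fits. The C3KO mean was 5.32 in code 1-1 and 6.76 in code 1-3. A block for the code ended the call (−1.21, adjusted p = 0.0693), and within code 1-3 the change was −0.88 (adjusted p = 0.0277). Ovgp1 fell by 0.60 ± 0.12 (adjusted p = 0.0303) to a level above the array median on 1 of 6 C3KO arrays. Its call held in 3 of the 11 fits and was lost under a block for the code (−0.53, adjusted p = 0.0830).

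Several stress genes set wt M2-2 apart from the other wt arrays. Of 22 heat shock protein genes 0 passed (median 0.13), with 7 higher and none lower at an unadjusted p under 0.05, where 6.54% of all genes were higher and 4.21% lower. Hspa1a, the inducible HSP70, was at 10.14 on wt M2-2 and at 8.86, 8.07, 8.14 and 7.87 on the other wt arrays, against 9.22, 9.83 and 10.06 in C3KO (1.08 ± 0.36, adjusted p = 0.247). M2-2 was higher than every C3KO array, and the other wt arrays were lower than every C3KO array. Hspb1 had 0.57 ± 0.15 (adjusted p = 0.109) and Dnajb4 0.46 ± 0.13 (adjusted p = 0.143). Without M2-2, 5 of the 22 passed, all higher, where 1.25% of all genes tested were called higher in that fit. This alternative was chosen after seeing the data. Leaving out a wt array that lies near the C3KO arrays favours calls in such genes, so these calls are no separate evidence. Among them were Hspa1a at 1.47 ± 0.30 (adjusted p = 0.0160), Hspb1 at 0.66 ± 0.15 (adjusted p = 0.0263) and Dnajb4 at 0.57 ± 0.11 (adjusted p = 0.0144). Xirp1 (1.52 ± 0.22, adjusted p = 0.00130) and Gabarapl1 (0.81 ± 0.13, adjusted p = 0.00241) also passed without it. Of 22 genes of endoplasmic reticulum stress 0 passed (median 0.17), 6 being higher at an unadjusted p under 0.05, among them Asns (0.31 ± 0.11) and Dnajb9 (0.26 ± 0.10). Of 18 immediate early genes 0 passed (median −0.09), Jund having 0.79 ± 0.20 (adjusted p = 0.0976) and Atf3 1.30 ± 0.45 (adjusted p = 0.260). Without M2-2, Atf3 (1.80 ± 0.36, adjusted p = 0.0150), Jund (0.86 ± 0.21, adjusted p = 0.0432) and Nr4a3 (1.25 ± 0.31, adjusted p = 0.0480) passed. So did Hspa5 (0.50 ± 0.12, adjusted p = 0.0333) and Dnajb9 (0.37 ± 0.09, adjusted p = 0.0295) of the endoplasmic reticulum list. M2-2 is the only wt array of code 1-1 and the only one of its prefix, and what sets it apart was not tested.

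Fuel use and regeneration genes did not pass with all arrays in the fit. Of 20 genes of glycolysis and glycogen 15 had a change under 0 (median −0.05), where 5647 of all 11934 genes tested did. Slc2a1, the basal glucose transporter, was at 0.70 ± 0.22 (adjusted p = 0.207) and Pfkfb3 at −0.85 ± 0.29 (adjusted p = 0.249). The list held 2 higher and 1 lower at an unadjusted p under 0.05 in limma. Of 28 fatty acid genes 0 passed (median 0.00, 3 higher unadjusted), and of 18 genes of the tricarboxylic acid cycle 0 passed (median −0.01, none unadjusted). Of 19 genes of regeneration and denervation 0 passed (median 0.04, 2 higher and 1 lower unadjusted). Musk, the kinase that organises the neuromuscular junction, had 0.56 ± 0.14 (adjusted p = 0.0993) and the embryonic myosin gene Myh3 0.73 ± 0.35 (adjusted p = 0.475). Without M2-2, Slc2a1 (0.91, adjusted p = 0.0209), Pfkfb3 (−1.13, adjusted p = 0.0238), Pdk4 (0.42, adjusted p = 0.0313), Musk (0.65, adjusted p = 0.0213) and Myf6 (0.46, adjusted p = 0.0424) passed. No call was made with all arrays among 26 proteasome genes (median −0.02, 1 higher and 1 lower unadjusted), 22 oxidative stress genes (median 0.01, 4 higher unadjusted) or 17 clock genes (median −0.06, 1 lower unadjusted). Without M2-2, the oxidative stress genes Srxn1 (1.02, adjusted p = 0.00440) and Txnrd1 (0.47, adjusted p = 0.0297) passed. Of 10 genes of cytosolic phospholipase A2 and eicosanoids 1 rose, Pla2g4e (median 0.05).

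Markers of other cells gave no call in limma. There were 0 of 8 adipocyte genes (median 0.11, none unadjusted), 0 of 9 tendon genes (median 0.17, 2 higher and 1 lower unadjusted), 0 of 5 nerve genes (median 0.08, none unadjusted), 0 of 5 liver genes (median 0.10, none unadjusted) and 0 of 1 erythrocyte gene. The 12 general fibre genes had a median of −0.03 and no call, none unadjusted. Adipocyte levels ran from 8.03 to 9.05 in wt and from 7.98 to 9.12 in C3KO, nearly the same range.

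In quadriceps of the same 6 C3KO and 5 wt adults, most of these differences had the same direction. Of 49 called genes read by the same probe set in both muscles 47 had the same sign there, against 59.1% of 11776 genes overall. Both muscles come from the same mice, so they are not independent. In quadriceps 121 of 12225 genes (0.99%) passed. Tmem87a was higher by 3.14 ± 0.13 in quadriceps, Cap1 by 2.30 ± 0.20, Pla2g4e by 1.24 ± 0.12, Alad by 1.06 ± 0.15 and Ddit4 by 1.27 ± 0.45, beside soleus changes of 2.41, 2.33, 1.20, 1.07 and 1.33. Alpk3 had 1.21 ± 0.22, Acer2 0.79 ± 0.15 and Foxo1 0.63 ± 0.16. Near 0 in quadriceps were Zfp106 (0.05 ± 0.09), Trpm6 (0.05 ± 0.11) and Klf5 (0.00 ± 0.15), and Ky had −0.60 ± 0.17 and Angpt1 −0.12 ± 0.18.

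The test of the muscle difference itself was made on soleus minus quadriceps values within each mouse. No gene of 12225 passed (0% called), with 934 at an unadjusted p under 0.05. The smallest p values belonged to Cpeb2, a translation regulator (soleus minus quadriceps 0.92 ± 0.15, adjusted p = 0.0526), and Gbp6, an interferon-induced GTPase gene (0.91 ± 0.16, adjusted p = 0.0635). For Zfp106 the difference was 0.49 (adjusted p = 0.397), for Klf5 0.79 (adjusted p = 0.547) and for Ky −0.86 (adjusted p = 0.547). So no gene was shown to respond differently in soleus, and a missed threshold does not show that the muscles respond alike.

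**Figure D4:**
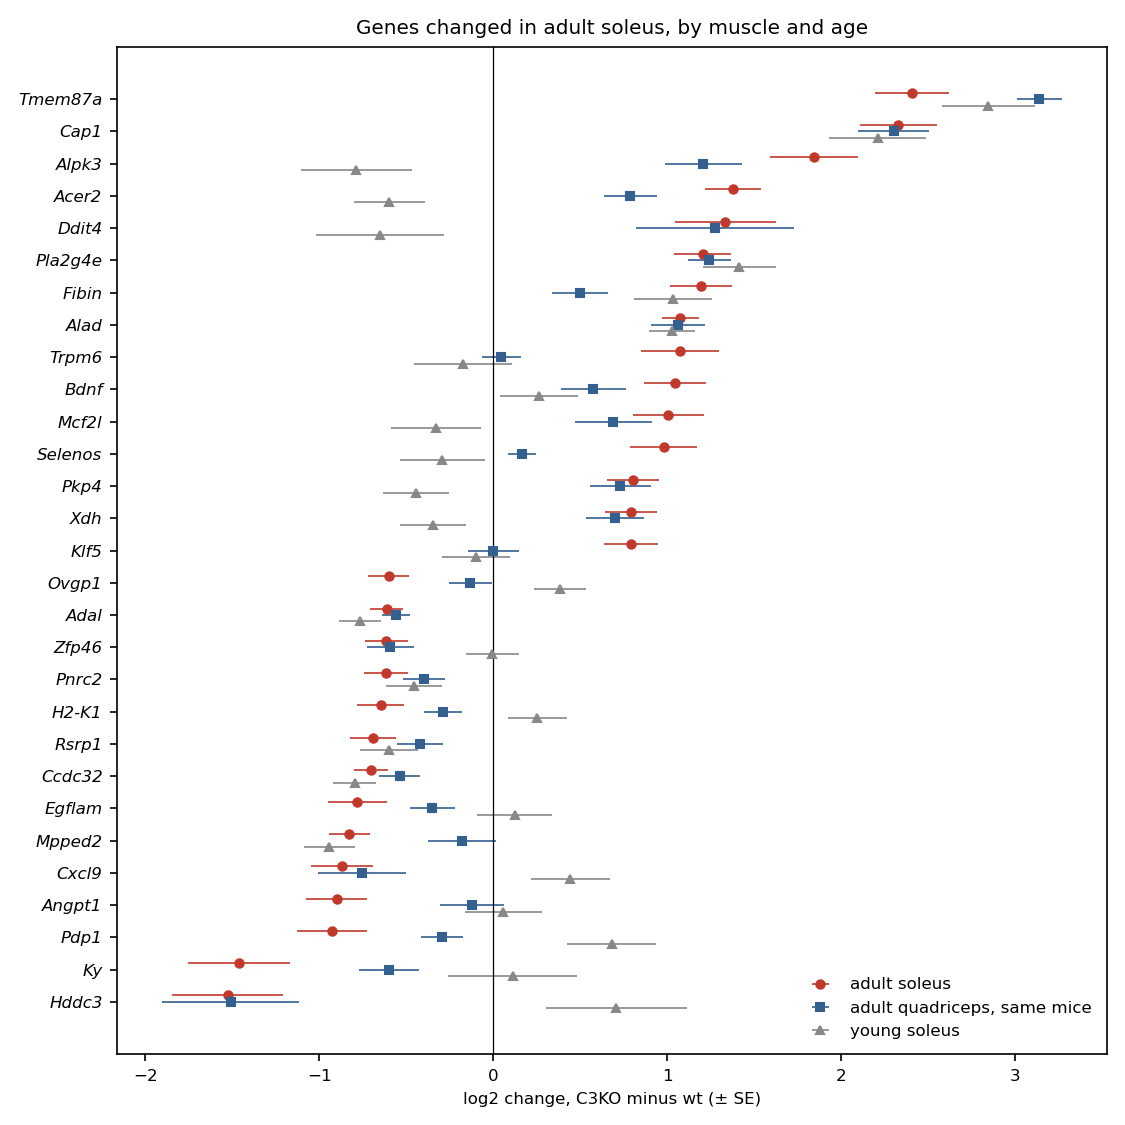
Log2 change (C3KO minus wt, ± SE) of 29 genes called in adult soleus, in adult soleus (red circles), in quadriceps of the same adults (blue squares) and in young soleus (grey triangles). Tmem87a, Cap1, Alad and Pla2g4e lie on the same side in all 3, and Alpk3, Acer2 and Ddit4 lie above 0 in both adult muscles and under 0 in young soleus.

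Soleus of mice aged 2 to 3 months gave another picture for many of these genes. The young comparison rests on 4 wt arrays, all of prefix F4, and 3 C3KO arrays, after leaving out the array of young C3KO mouse H4-2, which carried liver RNA. In young soleus 37 of 11934 genes passed (0.31%). Of the 50 genes 28 had the same sign in young soleus, against 45.4% of all genes tested. The genotype difference changed with age for 32 of 11934 genes (0.268%), 23 with a larger value in adults and 9 with a smaller one. Of the 32, 31 had opposite signs at the 2 ages. Selection on the difference between ages itself favours opposite signs, so that count does not show a reversal. For some of them the adult change was near 0, as for Blvrb (−0.06 ± 0.16) and Zfp30 (−0.16 ± 0.17). Among the 50 genes called in adults, 7 also passed this test.

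For most of the called genes close to Capn3, and for Cap1 and Alad on chromosome 4, the young change was near the adult one. Tmem87a had 2.85 ± 0.27 in young soleus, Pla2g4e 1.42 ± 0.21, Zfp106 0.53 ± 0.11, Ccdc32 −0.80 ± 0.12, Adal −0.76 ± 0.12, Cap1 2.21 ± 0.28 and Alad 1.03 ± 0.13. Of the other 3 called genes within 100 places, which the naming rule does not cover, Rpap1 had −0.42 beside −0.47 in adults. Ndufaf1 had −0.61 beside −0.38, and Exd1 had 0.21 beside 0.73. Another kept probe set of Rpap1 had an adult difference of 0.14, and the mean of its probe sets −0.16 (limma adjusted p = 0.616). Of the 11 fits that omit 1 adult array each, the adult call held in 8 for Rpap1, 3 for Ndufaf1 and 11 for Exd1. For none of these genes did the difference between ages pass (adjusted p from 0.237 to 0.975). Alpk3 was different: its young levels were 11.94 in wt and 11.15 in C3KO, its adult levels 9.87 and 11.71. The young change was −0.79 ± 0.32 and the difference between ages 2.63 ± 0.41 (adjusted p = 0.00972). Acer2 (young −0.60 ± 0.20, difference 1.98 ± 0.26, adjusted p = 0.00219) and Foxo1 (young −0.79 ± 0.18, difference 1.46 ± 0.23, adjusted p = 0.00972) also had opposite signs at the 2 ages. For all 3 the wt mean was lower and the C3KO mean higher in adults than in young mice, which was not tested.

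Pkp4 had a difference between ages of 1.24 ± 0.24 (adjusted p = 0.0346), Pdp1 of −1.61 ± 0.33 (adjusted p = 0.0399) and Ovgp1 of −0.99 ± 0.19 (adjusted p = 0.0336). Ky did not pass (−1.57, adjusted p = 0.153), though its young change was 0.11 ± 0.37. Other genes passed the age test without a call in adults. Ndrg4 (difference 3.07 ± 0.51, adjusted p = 0.0113), Dct (2.04 ± 0.32), the galectin gene Lgals3 (2.00 ± 0.34) and the ubiquitin hydrolase gene Uchl1 (1.79 ± 0.35) had changes of 1.07, 0.69, 0.62 and 0.56 in adults and −2.0, −1.36, −1.38 and −1.22 in young soleus. The lymphatic growth factor gene Vegfc (−2.47 ± 0.29, adjusted p = 7.53e-04), the syndecan gene Sdc4 (−2.08 ± 0.39), Zfp30 (−1.71 ± 0.28) and Blvrb, a biliverdin reductase gene (−1.25 ± 0.25), went the other way, with young changes of 2.18, 3.01, 1.55 and 1.19 and adult changes of −0.29, 0.93, −0.16 and −0.06. For Vegfc, Sdc4, Zfp30 and Blvrb the young wt mean was the lowest among the soleus groups (5.02, 6.71, 6.10 and 6.54). For Ndrg4, Dct, Lgals3 and Uchl1 the young C3KO mean was the lowest (6.29, 4.52, 5.91 and 6.05). All wt young mice share 1 prefix that no other group has. So a property of those mice cannot be told apart from genotype in young mice, nor from a change with age in these differences. The count of 32 was 149 without adult wt M2-2 and 14 without adult wt W2-3, and a block for the code gave 21.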

How the data were processed

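Whole-muscle RNA was measured on 1-colour Affymetrix arrays. Extraction used Trizol and labelling gave biotinylated cRNA, per the labels' protocols. The values are log2 intensities deposited by the authors in a single table for 42 arrays. The submitters' processing notes name MAS5 and RMA without a role or version. The background correction, scaling and probe summary are otherwise not given in the sources used here, and nothing more was normalized.

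Of 45037 probe sets (64 controls aside), 34945 carried a single symbol in GEO's platform annotation and were used. Not used were 932 with more than 1 symbol and 9160 unnamed or unlisted. Symbols were updated by gene ID through a RefSeq table of GRCm38.p6 (34741 matched, 99.4%), which also gave chromosome and gene order. Its gene coordinates are not printed because the build behind the table of values is not named. Promoter sequences are RefSeq's, in GRCm38.p6. A probe set was kept when it exceeded the median of its array on at least 4 arrays of a fit, and the kept probe set with the highest mean stood for its gene. Of the 50 called genes 22 had another kept probe set, and for 16 of these all had the same sign.

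The main comparison was fitted with limma 3.58.1 (lmFit and eBayes, R 4.3.3, statmod 1.5.0) on 18 soleus arrays of both ages, with 14 residual degrees of freedom and the spread shared by the 4 groups. The young C3KO array of H4-2 was left out because its liver genes had a median log2 intensity of 12.46, against 3.47 to 4.03 on the other soleus arrays. The contrasts were C3KO minus wt in adults and its difference from young mice. For the muscle difference, soleus minus quadriceps was formed within 18 mice. The pairing comes from the labels, which name the mouse. Two-sided p values were adjusted over all genes with the Benjamini-Hochberg method at 0.05, and errors after ± are standard errors of the fit unless SD is written. By the labels each array of a group is another mouse, and the number of arrays limits the precision. The gene calls were tested on simulated data with independent normal noise for each gene. The simulation held no outlying array and no effect of code or prefix. It therefore cannot say how far the calls depend on such effects.

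The members, the comparisons and the 36 gene lists were chosen with earlier results of these data known, so a list's direction here is no independent evidence. Genes named are Capn3, Ky, among called genes with unnamed clones left out the 15 that rose most and the 15 that fell most, the genes among the 12 nearest on each side of Capn3, up to 5 members of a list with the smallest p and its defining members, and up to 6 genes each way in the age difference. Alternatives changed the arrays, the code and prefix as blocks, an actin covariate, normalization, filter, probe set rule and variance model.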

Additional observations from a re-analysis of the deposited data

Results flagged for a closer look

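Within the genotype groups, 113 named or called genes gave 226 groups, in 11 of which 1 array stood far from the rest. For independent groups chance alone gives about 1 in 20. These genes share the same arrays and some were named because they were called. Whether the number flagged differs from chance was not tested. For the wt group, M2-2 was the highest array for Gabarapl1 (10.81, the next 9.77), Dnajb9 (10.17, the next 9.70) and Lmod2 (12.26, the next 11.86), and the lowest for Egflam (6.22, the next 7.16). X2-2 was the lowest for Myh7 (13.55, the next 13.70) and the highest for Tmem69 (6.76, the next 6.61) and Alpk3 (10.39, the next 9.84). W2-3 was the highest for Oip5os1 (11.60, the next 11.43) and X2-3 for Postn (7.84, the next 7.25). For the C3KO group, Q2-3 was the highest for Hspa5 (11.46, the next 11.04) and Q2-4 for Phactr4 (7.55, the next 7.08).

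The genotype difference in soleus differed between adult and young mice by the interaction test of limma for Ndrg4 (3.07), Alpk3 (2.63), Dct (2.04), Lgals3 (2.00), Acer2 (1.98), Uchl1 (1.79), Foxo1 (1.46) and Pkp4 (1.24), each larger in adults. It was smaller in adults for Vegfc (−2.47), Sdc4 (−2.08), Zfp30 (−1.71), Pdp1 (−1.61), Blvrb (−1.25) and Ovgp1 (−0.99).

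The young C3KO soleus array of H4-2 was left out of the main fits and used only in alternative fits that include it. It had a median log2 intensity of 12.46 over 14 liver genes, while the highest of the other soleus arrays had 4.03. Of the arrays of M2-1, the one titled soleus had a slow minus fast gene difference of −6.72, within the quadriceps range of −7.60 to −4.19. The one titled quadriceps had 0.20, within the soleus range of −1.16 to 1.04.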

How the results depend on the processing

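The 50 calls (27 higher, 23 lower) became 20 with the array of H4-2 included (14 and 6), 27 in the adult arrays alone (8 lower), 20 under a block for the code (14 and 6), 21 in arrays of code 1-3 (12 and 9) and 102 with the prefix as a random block (61 and 41, estimated correlation −0.06). The other settings gave 43 to 67. No prefix occurs in both genotypes, and a negative correlation within a prefix narrows the standard errors of the genotype difference. So the 102 calls of the prefix block are no added evidence for the calls. Without 1 adult array the counts ran from 17 to 229 in all, 12 to 149 higher and 5 to 80 lower. The 32 calls of the age difference became 21 under that block, 17 with the mean of a gene's probe sets and 14 to 149 without 1 adult array. The muscle difference had 0 calls in the paired fit, and 1 with no replicate block for the mouse (Gbp6) or with the mean of probe sets (Cpeb2). Of the named genes, 3 changed sign in adults under some alternative: Ttn was −0.019 with the mean of probe sets and ran from −0.00476 to 0.047 without 1 array, Vegfc was 0.032 in arrays of code 1-3, and Blvrb ran from −0.239 to 0.023 without 1 array. The median of the clock genes was −0.14 without X2-3. List members called without M2-2 are an alternative chosen after seeing the data. The cause of these shifts was not tested. The number of arrays and signal near the array median limit what small or weakly expressed changes can show.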
